A study of Mus musculus with 12 samples.

Results

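The 36 genes described here encode the enzymes of cholesterol synthesis, the proteins that switch that synthesis on and off, and the proteins that take up, store, move and export cholesterol. They were listed by name from these roles, with earlier results of these data known, and all 36 were found among 21851 gene symbols. They were followed in cells washed from the peritoneal cavity of C57BL/6J mice, in 4 groups of 3 RNA-sequencing libraries. The groups were lactoferrin knockout mice given lipopolysaccharide (KO LPS), lactoferrin knockout mice given phosphate-buffered saline (KO PBS), wild-type mice given lipopolysaccharide (WT LPS) and wild-type mice given phosphate-buffered saline (WT PBS). All injections were intraperitoneal. Lipopolysaccharide (LPS) is a bacterial cell wall component that is used to start an acute inflammation, and lactoferrin (gene Ltf) is an iron-binding protein of milk, secretions and neutrophil granules. The sources used here give neither the age and sex of the mice nor the LPS dose, the time after injection and the number of mice behind a library. The study asked how the loss of lactoferrin changes gene expression in these cells during LPS-induced inflammation.

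Cells make cholesterol from acetyl-CoA through mevalonate, isoprenoid units and squalene. When membrane sterol is low, SCAP carries the precursor of the transcription factor SREBP2 out of the endoplasmic reticulum and the synthesis genes are switched on, whereas the INSIG proteins hold SCAP back when sterol or 25-hydroxycholesterol is plentiful. The liver X receptors (LXR) sense oxysterols and switch on the export pumps ABCA1 and ABCG1 and the ubiquitin ligase MYLIP, which marks lipoprotein receptors for degradation. In macrophages, Ch25h, the enzyme that makes 25-hydroxycholesterol, is a known target of interferon and of Toll-like receptor signalling.

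The stretches before the start sites of 4 members are shown because these genes mark patterns of the data. Hmgcs1, Lss and Mvd are synthesis genes that had higher values in KO PBS than in WT PBS libraries, without an adjusted p under 0.05. Mvd also fell under LPS, Lss rose under LPS in wild type, and Ch25h rose under LPS. The stretches were taken from RefSeq on GRCm38.p6, 5′ to 3′ on the strand of the gene, and trimmed where the annotated exons of the gene began. Capitals mark TCACNCCAC, the core of a sterol regulatory element, CCAAT, the box bound by NF-Y, which reads ATTGG on the other strand, and GGGA followed after any 4 bases by CC, a loose form of the site of NF-κB, which on the other strand reads GG and, after 4 bases, TCCC.
Hmgcs1, chr13:119690101-119690350, plus strand: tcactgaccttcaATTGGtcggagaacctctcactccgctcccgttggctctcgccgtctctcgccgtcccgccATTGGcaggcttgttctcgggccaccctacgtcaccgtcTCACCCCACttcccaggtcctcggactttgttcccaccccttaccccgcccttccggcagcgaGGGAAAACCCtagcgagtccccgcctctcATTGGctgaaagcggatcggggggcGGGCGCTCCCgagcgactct
Lss, chr10:76531355-76531587, plus strand: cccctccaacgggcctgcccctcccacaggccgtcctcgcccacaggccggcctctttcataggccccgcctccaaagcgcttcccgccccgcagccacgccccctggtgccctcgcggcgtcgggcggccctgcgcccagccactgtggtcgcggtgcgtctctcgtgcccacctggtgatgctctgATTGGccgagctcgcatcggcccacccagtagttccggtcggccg
Mvd, chr8:122443423-122443672, minus strand: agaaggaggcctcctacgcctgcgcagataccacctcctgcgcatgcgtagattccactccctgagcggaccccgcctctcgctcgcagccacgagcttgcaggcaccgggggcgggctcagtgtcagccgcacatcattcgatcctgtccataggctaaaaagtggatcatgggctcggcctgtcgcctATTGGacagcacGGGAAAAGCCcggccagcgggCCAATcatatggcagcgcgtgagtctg
Ch25h, chr19:34475165-34475398, minus strand: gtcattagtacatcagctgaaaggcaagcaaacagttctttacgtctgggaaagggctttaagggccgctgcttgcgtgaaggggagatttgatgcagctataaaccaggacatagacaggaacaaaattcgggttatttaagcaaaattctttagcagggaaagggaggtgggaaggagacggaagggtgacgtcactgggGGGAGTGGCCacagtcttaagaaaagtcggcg
Promoters were matched for 29 of the 36 members, and motifs were searched on both strands of the 250 bases before each start. TCACNCCAC lay in the promoter of 1 of 15 matched synthesis genes, Hmgcs1, 137 bases before its start, against 1.05% of all 32851 promoters of the table. CCAAT lay in at least 1 promoter of 14 of these 15 genes and in 77.8% of their 18 promoters, against 33.8% of all promoters and 35.1% of the 9796 promoters of genes tested here. The box of Sp1, GGGCGG, which is not in capitals above, lay in 83.3% of the 18 promoters, against 58.0% of the promoters of genes tested. The Ch25h stretch held neither CCAAT nor TCACNCCAC and 1 match of the loose NF-κB form, which 22.5% of the promoters of genes tested also held. This loose form lay in 44.4% of the 18 promoters of synthesis genes. A strict form of the element bound by LXR, AGGTCA repeated exactly after 4 bases (DR4), lay in none of the matched promoters of members. It lay in 0.0152% of all promoters and in 0% of the promoters of genes tested, and looser forms were not searched. So rare a string cannot show whether members such as Abca1 have a site for LXR.

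The values are FPKM, which divide the fragments of a gene by its transcript length and by the size of the library. They sum to between 343874 and 388129 in a library. The number of reads behind a value is unknown. Ltf itself, the deleted gene, was at 0.117, 0.0832 and 0.0699 FPKM in KO LPS and 0.183, 0.258 and 0.212 in KO PBS. Ltf had 0.176, 1.33 and 0.275 FPKM in WT LPS and 1.89, 1.23 and 1.16 in WT PBS. Its log2(FPKM + 1) was lower in knockout than in wild type by a mean difference of -0.73 within treatment (exact two-sided permutation test, p = 0.005, the smallest the 12 libraries allow). All 10 markers of resident large peritoneal macrophages averaged at least 1 FPKM, and their sum lay between 6448 and 21731 FPKM. Markers of B cells, T cells, mast cells and neutrophils were also present, while 0 of 4 mesothelial markers averaged 1 FPKM. WT PBS replicate 3 stood apart, with Spearman correlations of 0.949 and 0.934 to replicates 1 and 2 of its group, which correlated at 0.975 with each other. Haemoglobin and other erythroid RNA was high in KO LPS replicate 1 (1886 FPKM summed) and WT LPS replicate 2 (2224 FPKM). The labels do not say that replicates came from separate mice, and the p-values then describe only how much the libraries varied, which may be technical. In these bulk samples, fewer cells of a type and less RNA per cell cannot be told apart.

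Over the 4 groups the members ranged from Apoe, a lipoprotein component that macrophages secrete, at a mean of 2705 FPKM over the 12 libraries, to Tm7sf2, a sterol reductase, at 0.739 FPKM. Npc2, a cholesterol carrier of the lysosome, had the second highest mean at 137 FPKM. Among the synthesis enzymes Hmgcs1 had the highest mean, 25.1 FPKM, and the regulators Srebf2 (44.1 FPKM) and Insig1 (25.6 FPKM) were as high or higher. Tm7sf2 fell below the minimum mean of 1 FPKM, so 35 of the 36 members were among the 9841 genes tested.

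**Figure D1:**
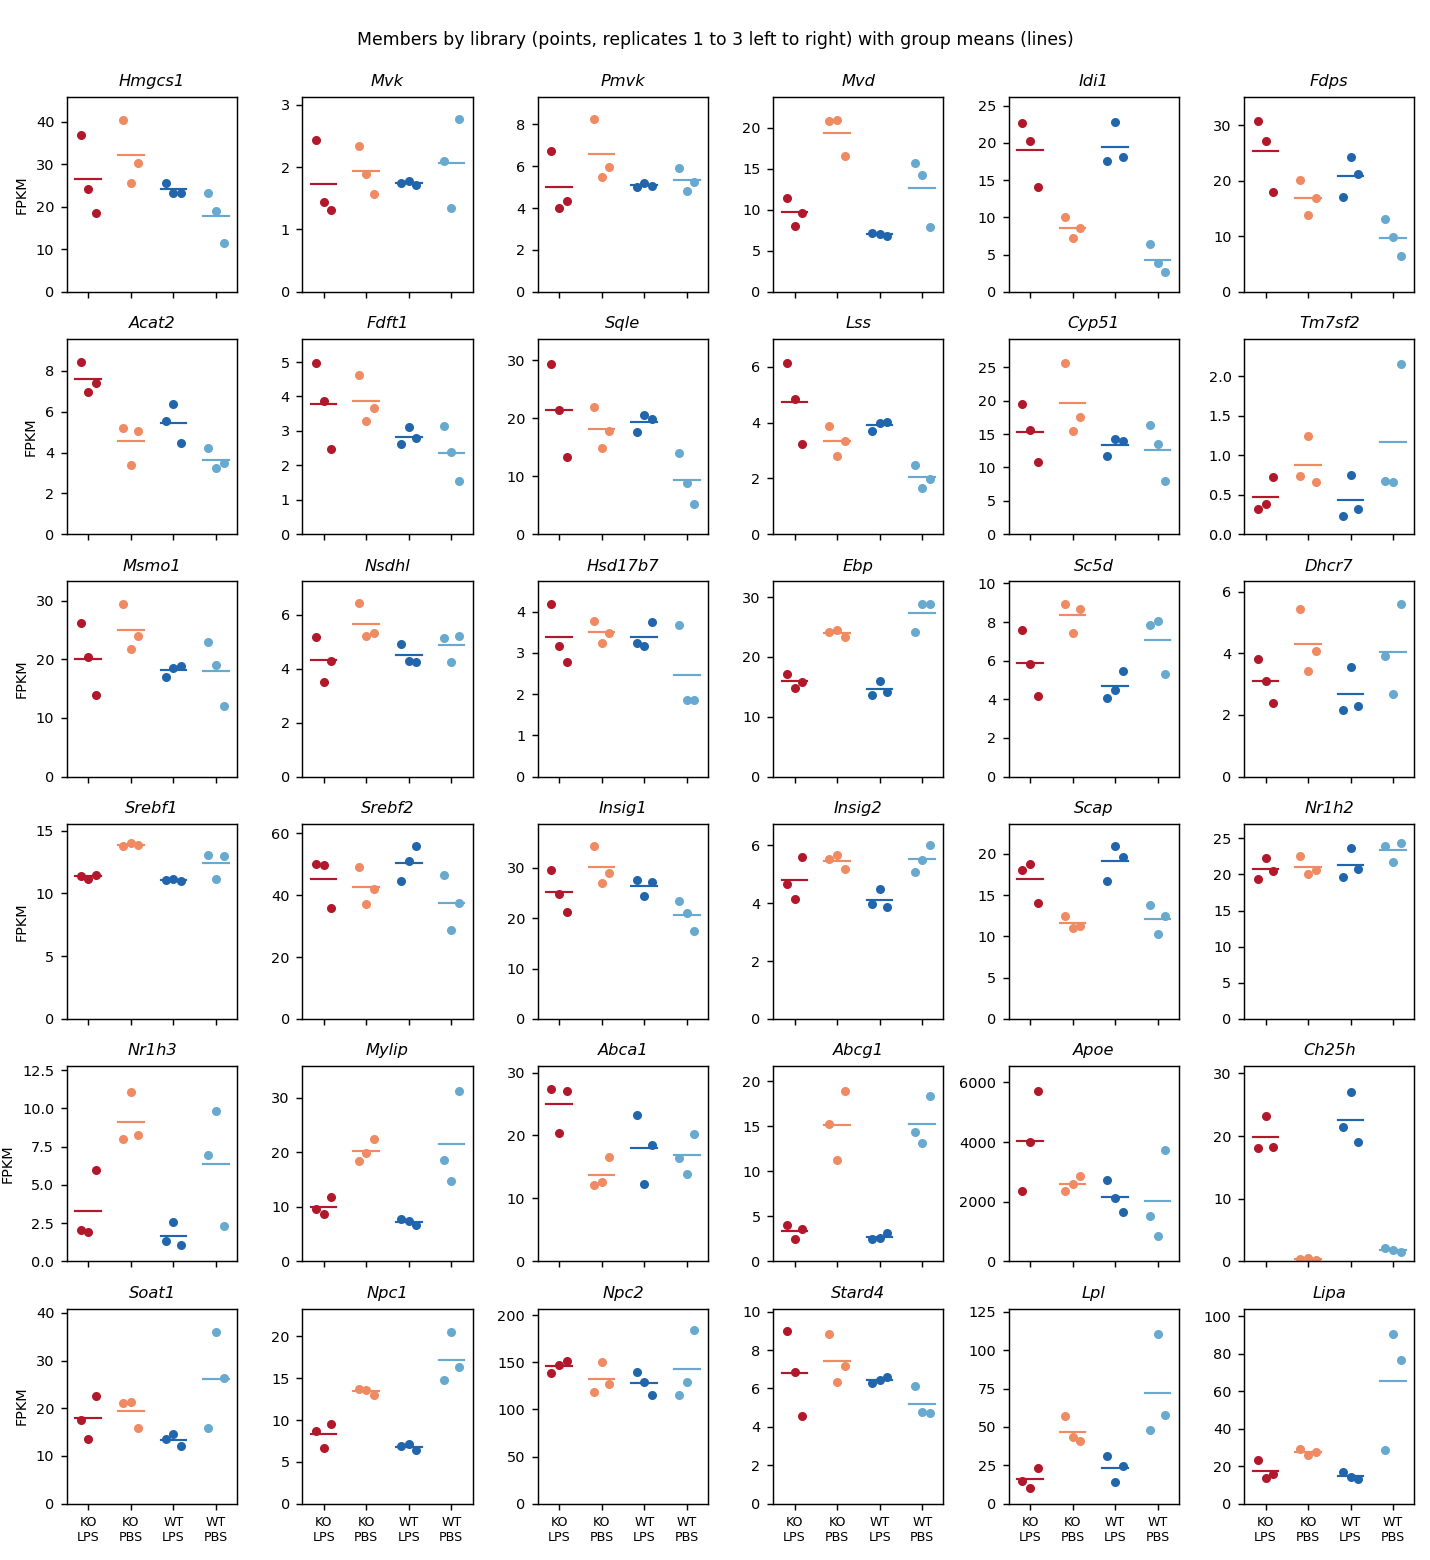
FPKM of the 36 members in every library (points, linear axis from 0) with the mean of each group (line), for KO LPS, KO PBS, WT LPS and WT PBS. Ch25h lay between 18.1 and 27.0 FPKM in the 6 LPS libraries and between 0.214 and 2.17 FPKM in the 6 PBS libraries, and Abcg1 lay at or below 4.08 FPKM in all LPS libraries and at or above 11.3 FPKM in all PBS libraries.

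LPS changed the members unevenly. In both genotypes the oxysterol enzyme Ch25h and the synthesis genes Idi1 and Acat2 rose. Abcg1, the lipase Lpl, the LXR gene Nr1h3, Mylip and the synthesis genes Mvd and Ebp fell in both. In the knockout, 5 of the 35 tested members were higher under LPS, where 19.9% of all tested genes were, and 9 were lower, where 33.3% of all tested genes were (limma on log2(FPKM + 1), Benjamini-Hochberg adjusted p under 0.05 over the 9841 genes). In wild type, 7 were higher, against a background of 24.8%, and 11 were lower, against 37.4%. The 14 members called in the knockout are 40% of those tested and the 18 in wild type 51.4%, each below the share of all tested genes called in either direction, 53.2% and 62.2%. Called in both genotypes were 4 that were higher (Ch25h, Idi1, Acat2 and Scap) and 7 that were lower (Abcg1, Lpl, Nr1h3, Mylip, Mvd, Npc1 and Ebp), and none was called in opposite directions. Another 3 passed in the knockout alone, 7 in wild type alone and 14 in neither, and passing in 1 genotype alone is not a difference between genotypes, which is tested further on. The median log2 fold change of the members was -0.16 in the knockout and -0.05 in wild type, beside -0.12 and -0.11 over all tested genes. The LPS and PBS libraries did not overlap for 5 members that were higher and 10 that were lower in the knockout, against 24.6% and 41.3% of all tested genes, and for 9 and 10 in wild type, against 27.2% and 38.9%. An unadjusted p under 0.05 was found for 15 members in the knockout, against 58.7% of all tested genes, and for 20 in wild type, against 66%. Scaling the libraries by median-of-ratios raised the median of all genes by 0.17 in the knockout and 0.16 in wild type and moved the split to 7 higher and 7 lower in the knockout and to 10 higher and 9 lower in wild type. Over all tested genes that scaling gave 29.8% higher and 24.6% lower in the knockout and 33.8% higher and 29.2% lower in wild type.

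**Figure D2:**
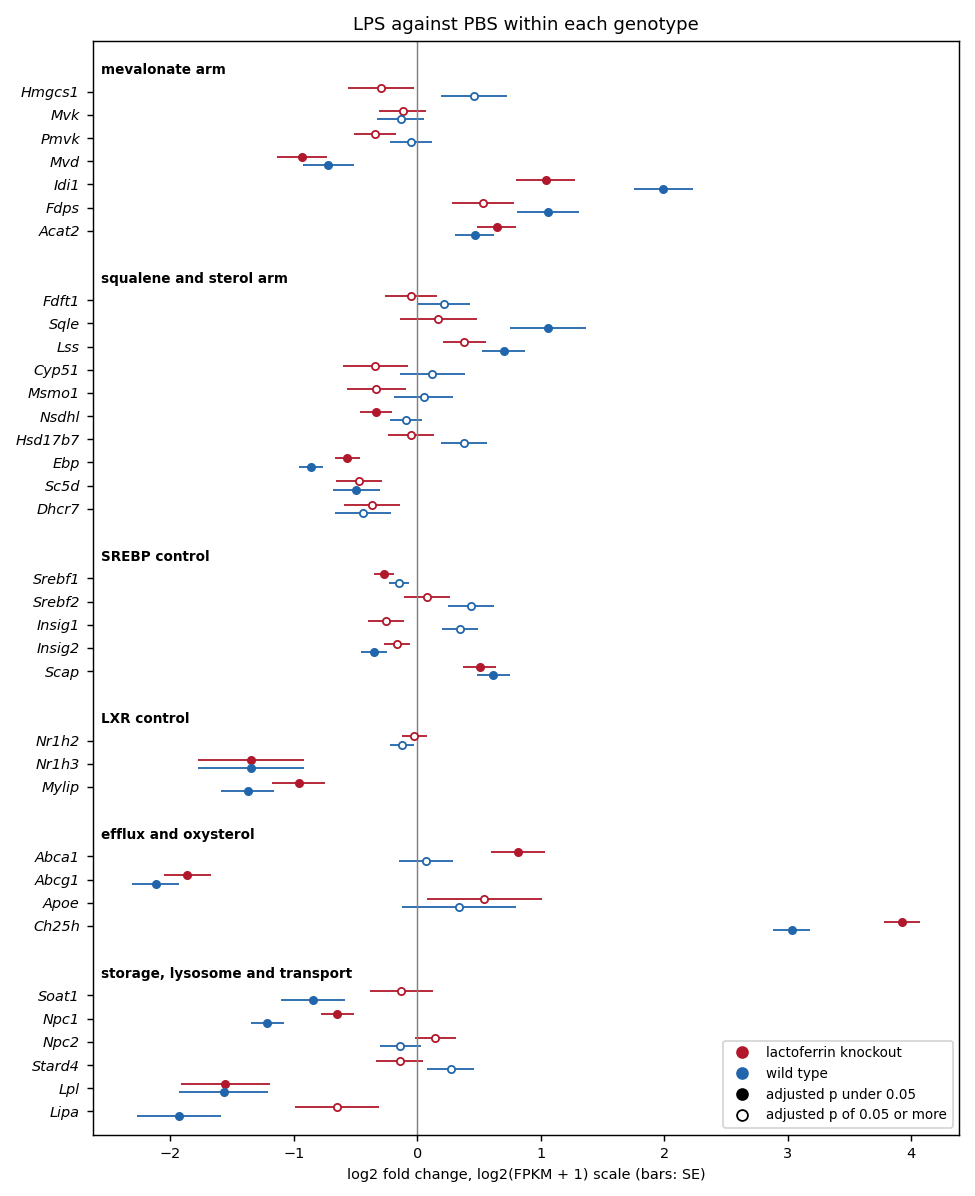
Log2 fold change, LPS over PBS, on the log2(FPKM + 1) scale with its standard error, for the 35 tested members in the knockout (red) and in wild type (blue), grouped by role, filled where the adjusted p was under 0.05. Ch25h stands at the far right, at 3.92 in the knockout and 3.03 in wild type, and Abcg1 at the far left in the knockout, at -1.86, and in wild type, at -2.12.

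Ch25h made the largest move of the members. It was at 18.1, 23.1 and 18.3 FPKM in KO LPS and 0.396, 0.503 and 0.214 in KO PBS. Ch25h had 21.4, 27.0 and 19.1 FPKM in WT LPS and 2.17, 1.85 and 1.56 in WT PBS. The LPS libraries were far above the PBS libraries in both genotypes, with no overlap, and the mean was 53.5 times as high under LPS in the knockout and 12.1 times as high in wild type. The log2 fold change was 3.92 ± 0.15 (SE, n = 3 libraries a group) in the knockout, with an adjusted p of 5.77e-08 by limma, and 3.03 ± 0.15 in wild type, with an adjusted p of 1.95e-07. The values of Ch25h in KO PBS lie below 1 FPKM, so its fold change depends on the added constant of 1 FPKM and reached 5.45 with a constant of 0.1. Ch25h lies on chromosome 19 (34473778 to 34475164, minus strand, GRCm38) and its exons overlap Gm26902 on the opposite strand, so reads of the pair cannot be separated without strand.

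The export genes did not move as 1 group. Abcg1, which passes cholesterol to high-density lipoprotein, was at 4.08, 2.50 and 3.63 FPKM in KO LPS and 15.3, 11.3 and 18.9 in KO PBS. Abcg1 had 2.50, 2.57 and 3.10 FPKM in WT LPS and 14.4, 13.1 and 18.3 in WT PBS. Every LPS library lay below every PBS library, and the log2 fold change was -1.86 ± 0.19 in the knockout (adjusted p = 2e-05) and -2.12 ± 0.19 in wild type (adjusted p = 6.72e-06). Abca1, which loads cholesterol on lipid-poor apolipoprotein A-I, was at 27.4, 20.4 and 27.1 FPKM in KO LPS and 12.1, 12.6 and 16.5 in KO PBS. Abca1 had 23.3, 12.3 and 18.5 FPKM in WT LPS and 16.4, 13.8 and 20.3 in WT PBS. The knockout groups did not overlap and Abca1 rose by 0.82 ± 0.22 (adjusted p = 0.00847), while the wild-type groups overlapped (0.07 ± 0.22, adjusted p = 0.81). Apoe was at 2344, 4016 and 5706 FPKM in KO LPS and 2350, 2592 and 2850 in KO PBS. Apoe had 2740, 2109 and 1658 FPKM in WT LPS and 1517, 836 and 3743 in WT PBS. Its libraries overlapped in both genotypes (0.54 ± 0.46 in the knockout, 0.34 ± 0.46 in wild type), and without WT PBS replicate 3, the highest of its group, the wild-type value was 0.91 with an adjusted p of 0.0469.

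Of the LXR genes, 2 of 3 fell under LPS in each genotype, where 33.3% of all tested genes fell in the knockout and 37.4% in wild type. Nr1h3, which encodes LXRα, was at 2.02, 1.89 and 5.99 FPKM in KO LPS and 8.01, 11.1 and 8.23 in KO PBS. Nr1h3 had 1.30, 2.58 and 1.08 FPKM in WT LPS and 6.93, 9.82 and 2.28 in WT PBS. KO LPS replicate 3 was high and WT PBS replicate 3 low within their groups, so that the wild-type groups overlapped, and the log2 fold change was -1.35 ± 0.43 in both genotypes (adjusted p = 0.0205 in the knockout and 0.0175 in wild type). That call was lost when any of 3 single libraries was left out in the knockout, with adjusted p up to 0.0796, and any of 4 in wild type, with adjusted p up to 0.0705. Exons of Nr1h3 overlap Gm13783 on the same strand, so its value could hold reads of that gene. Mylip was at 9.52, 8.58 and 11.7 FPKM in KO LPS and 18.4, 19.8 and 22.4 in KO PBS. Mylip had 7.83, 7.40 and 6.65 FPKM in WT LPS and 18.5, 14.7 and 31.3 in WT PBS. Its groups did not overlap, and it fell by 0.96 ± 0.22 in the knockout (adjusted p = 0.00317) and by 1.37 ± 0.22 in wild type (adjusted p = 0.000236). Nr1h2, which encodes LXRβ, stayed between 19.3 and 24.3 FPKM in all 12 libraries, with log2 fold changes of -0.02 ± 0.10 and -0.13 ± 0.10 that did not pass.

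The 17 tested synthesis enzymes split. In the knockout 2 were higher and 3 lower under LPS, and in wild type 5 were higher and 3 lower. The 29.4% and 47.1% called in either direction lie below the 53.2% and 62.2% of all tested genes. The median log2 fold change of the enzymes was -0.30 in the knockout and 0.12 in wild type. Over all tested genes it was -0.12 and -0.11. Idi1, isopentenyl-diphosphate isomerase, was at 22.7, 20.2 and 14.1 FPKM in KO LPS and 10.1, 7.28 and 8.52 in KO PBS. Idi1 had 17.5, 22.8 and 18.1 FPKM in WT LPS and 6.41, 3.92 and 2.67 in WT PBS. All LPS libraries lay above all PBS libraries, with log2 fold changes of 1.04 ± 0.24 (adjusted p = 0.00376) and 1.99 ± 0.24 (adjusted p = 4.16e-05). Mvd, mevalonate diphosphate decarboxylase, which acts just before Idi1 in the pathway, went the other way: it was at 11.4, 8.07 and 9.65 FPKM in KO LPS and 20.8, 20.9 and 16.5 in KO PBS. Mvd had 7.11, 7.02 and 6.81 FPKM in WT LPS and 15.7, 14.2 and 7.95 in WT PBS. The groups did not overlap in either genotype, and Mvd fell by 0.94 ± 0.20 (adjusted p = 0.00274) and by 0.72 ± 0.20 (adjusted p = 0.0095). Ebp, the sterol isomerase, was at 17.1, 14.8 and 15.8 FPKM in KO LPS and 24.2, 24.5 and 23.3 in KO PBS. Ebp had 13.6, 15.9 and 14.2 FPKM in WT LPS and 24.2, 28.9 and 28.9 in WT PBS. Its groups also did not overlap, with falls of 0.57 ± 0.10 (adjusted p = 0.00073) and 0.86 ± 0.10 (adjusted p = 3.24e-05). Acat2, a cytosolic thiolase, was at 8.43, 6.97 and 7.41 FPKM in KO LPS and 5.22, 3.40 and 5.08 in KO PBS. Acat2 had 5.54, 6.36 and 4.44 FPKM in WT LPS and 4.24, 3.23 and 3.50 in WT PBS. Every LPS library lay above every PBS library of its genotype, with rises of 0.64 ± 0.16 and 0.46 ± 0.16, and the wild-type call was lost when any of 4 single libraries was left out, with adjusted p up to 0.0898. The transcript of Acat2 is 97.7% identical to that of Acat3 over 1477 bases, and Idi1 has a processed pseudogene, Gm13502, with 100% identity over 684 bases, so their values could hold reads of these copies. Fdps and Fdft1 also have near-identical processed pseudogenes, and Fdps shares 929 identical bases with Gm43738, a coding gene on the same strand. Exons of Hmgcs1, Idi1, Fdft1, Lss, Cyp51, Scap, Srebf1 and Npc1 overlap genes on the opposite strand, for Fdft1 the gene Ctsb over 774 bases.

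Farnesyl diphosphate synthase (Fdps), squalene epoxidase (Sqle) and lanosterol synthase (Lss) passed in wild type. Fdps was at 30.7, 27.1 and 17.97 FPKM in KO LPS and 20.1, 13.8 and 17.0 in KO PBS. Fdps had 17.0, 24.3 and 21.3 FPKM in WT LPS and 13.1, 9.79 and 6.37 in WT PBS, and rose by 1.06 ± 0.25 in wild type (adjusted p = 0.00335), with a value of 0.53 ± 0.25 in the knockout (adjusted p = 0.0949). Sqle was at 29.4, 21.5 and 13.2 FPKM in KO LPS and 21.9, 14.9 and 17.8 in KO PBS. Sqle had 17.6, 20.6 and 19.8 FPKM in WT LPS and 14.1, 8.78 and 5.28 in WT PBS. It rose by 1.06 ± 0.31 in wild type (adjusted p = 0.0113), and its value in the knockout was 0.17 ± 0.31. Lss was at 6.14, 4.85 and 3.24 FPKM in KO LPS and 3.87, 2.79 and 3.35 in KO PBS. Lss had 3.71, 3.997 and 4.02 FPKM in WT LPS and 2.48, 1.67 and 1.98 in WT PBS, with 0.70 ± 0.18 in wild type (adjusted p = 0.00477) and 0.38 ± 0.18 in the knockout (adjusted p = 0.0874). For all 3 genes the wild-type groups were apart and the knockout groups overlapped, with KO LPS replicate 3 low. Without that library, Fdps and Lss passed in the knockout as well, with adjusted p of 0.0293 and 0.00809. Hmgcs1, which makes the precursor of mevalonate, was at 36.8, 24.1 and 18.6 FPKM in KO LPS and 40.3, 25.6 and 30.3 in KO PBS. Hmgcs1 had 25.6, 23.3 and 23.2 FPKM in WT LPS and 23.2, 19.0 and 11.5 in WT PBS. Both pairs of groups overlapped, with log2 fold changes of -0.30 ± 0.27 and 0.46 ± 0.27 that did not pass. Nsdhl in the knockout (-0.33 ± 0.13, adjusted p = 0.0476) and Sc5d in wild type (-0.49 ± 0.19, adjusted p = 0.0388), both late sterol enzymes, passed narrowly and lost the call under median-of-ratios scaling, with adjusted p of 0.27 and 0.14. The tested enzymes that passed in neither genotype were Hmgcs1, Mvk, Pmvk, Fdft1, Cyp51, Msmo1, Hsd17b7 and Dhcr7.

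Among the SREBP genes, Scap rose in both genotypes. It was at 18.1, 18.8 and 14.1 FPKM in KO LPS and 12.5, 11.1 and 11.2 in KO PBS. Scap had 16.7, 21.0 and 19.6 FPKM in WT LPS and 13.8, 10.3 and 12.4 in WT PBS, with rises of 0.51 ± 0.14 (adjusted p = 0.00841) and 0.62 ± 0.14 (adjusted p = 0.00213) and no overlap. Srebf1, which encodes SREBP1, the form that mainly drives fatty acid genes, was at 11.4, 11.2 and 11.5 FPKM in KO LPS and 13.8, 14.0 and 13.9 in KO PBS. Srebf1 had 11.1, 11.1 and 10.9 FPKM in WT LPS and 13.1, 11.2 and 13.0 in WT PBS. Its libraries were close within groups and the changes small, -0.27 ± 0.08 in the knockout (adjusted p = 0.0135) and -0.15 ± 0.08 in wild type (adjusted p = 0.12), and the first was -0.09 and no longer called under median-of-ratios scaling (adjusted p = 0.34). Srebf2 was at 50.1, 49.9 and 36.0 FPKM in KO LPS and 49.1, 37.2 and 41.9 in KO PBS. Srebf2 had 44.7, 51.0 and 56.0 FPKM in WT LPS and 46.6, 28.7 and 37.6 in WT PBS. The groups overlapped in both genotypes, with values of 0.08 ± 0.19 and 0.44 ± 0.19 (adjusted p = 0.75 and 0.0608). Insig1, itself a target of SREBP2, was at 29.7, 24.9 and 21.2 FPKM in KO LPS and 34.4, 27.1 and 28.9 in KO PBS. Insig1 had 27.6, 24.4 and 27.2 FPKM in WT LPS and 23.5, 21.0 and 17.5 in WT PBS. Its knockout libraries overlapped and its wild-type libraries did not, with values of -0.25 ± 0.15 and 0.35 ± 0.15 (adjusted p = 0.16 and 0.0554). Under median-of-ratios scaling Srebf2 and Insig1 passed in wild type, at 0.62 and 0.53. Insig2 passed in wild type at -0.35 ± 0.11 (adjusted p = 0.0134) and lost the call under that scaling (adjusted p = 0.12).

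Of the 6 storage, lysosome and transport genes, 2 fell under LPS in the knockout and 4 in wild type, where 33.3% and 37.4% of all tested genes fell, and none was called higher. Lpl, which releases fatty acids from lipoprotein triglycerides, was at 14.6, 10.2 and 23.2 FPKM in KO LPS and 56.9, 43.1 and 40.8 in KO PBS. Lpl had 30.8, 14.2 and 24.4 FPKM in WT LPS and 47.9, 111 and 57.8 in WT PBS. The groups did not overlap, and the falls were 1.56 ± 0.36 (adjusted p = 0.00374) and 1.57 ± 0.36 (adjusted p = 0.00277). Npc1, which exports cholesterol from the lysosome, was at 8.73, 6.64 and 9.52 FPKM in KO LPS and 13.8, 13.6 and 13.0 in KO PBS. Npc1 had 6.88, 7.13 and 6.38 FPKM in WT LPS and 14.8, 20.5 and 16.3 in WT PBS. Every LPS library was below every PBS library, with falls of 0.65 ± 0.13 (adjusted p = 0.00197) and 1.21 ± 0.13 (adjusted p = 2.45e-05). Lipa, the lysosomal acid lipase that frees cholesterol from its esters, was at 23.2, 13.7 and 15.9 FPKM in KO LPS and 29.2, 26.0 and 27.3 in KO PBS. Lipa had 16.7, 14.2 and 13.0 FPKM in WT LPS and 28.4, 90.7 and 76.8 in WT PBS. It fell by 1.93 ± 0.34 in wild type (adjusted p = 0.000526), with WT PBS replicate 1 far below the rest of its group. Its value in the knockout was -0.65 ± 0.34 (adjusted p = 0.13), although every KO LPS library lay below every KO PBS library. In a limma fit of the knockout libraries alone, Lipa was called lower under LPS (adjusted p = 0.0158). Soat1, which stores cholesterol as esters, was at 17.6, 13.5 and 22.7 FPKM in KO LPS and 21.0, 21.4 and 15.8 in KO PBS. Soat1 had 13.6, 14.6 and 12.0 FPKM in WT LPS and 15.9, 36.0 and 26.4 in WT PBS. It fell by 0.84 ± 0.26 in wild type (adjusted p = 0.0134), a call lost without WT PBS replicate 2 (adjusted p = 0.0528), and its knockout groups overlapped. Npc2 and Stard4, a carrier that moves sterol between membranes, passed in neither genotype.

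The summed FPKM of cell type marker lists also differed between treatments. The 10 large macrophage markers summed to 8767 to 10875 FPKM in KO LPS against 12905 to 15038 in KO PBS, and to 6448 to 9401 in WT LPS against 9589 to 21731 in WT PBS. The 5 B cell markers summed to 138 to 239 FPKM in KO LPS against 631 to 868 in KO PBS, and to 228 to 327 in WT LPS against 500 to 1074 in WT PBS. The 7 neutrophil markers summed to 713 to 2674 FPKM in KO LPS against 1214 to 3063 in KO PBS, and to 153 to 279 in WT LPS against 1966 to 3287 in WT PBS. In the knockout, the neutrophil markers Cxcr2, Mmp8 and Mmp9 fell under LPS without overlap, while S100a8, S100a9, Retnlg and Csf3r overlapped. Large macrophage and B cell sums were lower under LPS in both genotypes with no overlap. Neutrophil sums were apart in wild type and overlapped in the knockout. Single markers did not all follow these sums. Lyz2 had a mean of 9187 FPKM over the 12 libraries, against 11307 for the whole large macrophage sum. In both genotypes Adgre1 fell and Selp rose under LPS without overlap. Of the B cell markers, Cd79a and Cd79b fell in both genotypes without overlap, while Pax5 overlapped in both. The 5 T cell markers summed to 5.32 to 11.18 FPKM in KO LPS against 11.19 to 16.4 in KO PBS, and to 8.14 to 10.004 in WT LPS against 24.8 to 35.8 in WT PBS, also without overlap. The 8 small macrophage, monocyte and dendritic cell markers summed to 1696 to 3251 FPKM in KO LPS against 2141 to 3491 in KO PBS, which overlap, and to 2544 to 3110 in WT LPS against 4033 to 4819 in WT PBS, which do not. Within this list, Ccr2 and Ly6c2 fell and Irf4 rose under LPS in both genotypes, each without overlap. The part of these cell types in the LPS responses of the members was not tested.

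Without LPS, Ch25h was lower in knockout than in wild-type cells, and none of the synthesis enzymes passed the test. Of the 35 tested members, 0 were called higher, where 0.0203% of all tested genes were, and 1 was called lower, Ch25h, where 0.0915% were. Ch25h was at 0.396, 0.503 and 0.214 FPKM in KO PBS against 2.17, 1.85 and 1.56 in WT PBS. All 3 knockout libraries were below all 3 wild-type libraries, and the log2 fold change was -1.06 ± 0.15 (adjusted p = 0.0275). With an added constant of 0.1 in place of 1 FPKM it was -2.10, and the call was lost in 7 of 15 alternative fits (adjusted p from 0.00721 to 0.258 over all of them), among them the fit of the 6 PBS libraries alone and those without any single KO PBS library or without WT PBS replicate 2.

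Of the 17 tested synthesis enzymes, 15 had a positive log2 fold change of KO PBS over WT PBS, and the median was 0.49, beside -0.02 over all tested genes, of which 45.2% were positive. The enzymes moved together from library to library, as described further on, so these 15 are not separate observations. Without passing after adjustment (adjusted p of 0.29 or more), 9 of the 17 had an unadjusted p under 0.05, all higher in the knockout, and 14 of the 35 members did, 11 higher and 3 lower, where 9.11% of all tested genes had one. The 3 KO PBS libraries lay above the 3 WT PBS libraries for 7 of the 17 enzymes and 10 of the 35 members, where 6.04% of all tested genes did so, and below them for 2 members (Ch25h and Npc1), where 7.34% did so. Summed over the 18 listed enzymes, the level was 242, 182 and 197 FPKM in KO PBS against 175, 148 and 118 in WT PBS, which does not overlap. The 7 enzymes of the mevalonate arm summed to 107, 78.4 and 84.9 FPKM in KO PBS against 70.6, 56.3 and 40.0 in WT PBS. The 11 enzymes of the squalene and sterol arm summed to 135, 103 and 112 FPKM in KO PBS against 104, 91.8 and 77.8 in WT PBS, which overlap.

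Of the 4 enzymes with the highest values, 3 belong to the mevalonate arm (Idi1, Hmgcs1 and Fdps) and 1, Sqle, to the squalene and sterol arm, with medians of 0.62 and 0.45 over the tested enzymes of each arm. Sqle was at 21.9, 14.9 and 17.8 FPKM in KO PBS against 14.1, 8.78 and 5.28 in WT PBS, a log2 fold change of 0.96 ± 0.31 (adjusted p = 0.39). Idi1 was at 10.1, 7.28 and 8.52 FPKM in KO PBS against 6.41, 3.92 and 2.67 in WT PBS, a log2 fold change of 0.90 ± 0.24 (adjusted p = 0.29). Hmgcs1 was at 40.3, 25.6 and 30.3 FPKM in KO PBS against 23.2, 19.0 and 11.5 in WT PBS, with 0.84 ± 0.27 (adjusted p = 0.39). For each of these 3 genes all knockout libraries were above all wild-type libraries. Insig1 had the same order of groups, at 34.4, 27.1 and 28.9 FPKM in KO PBS against 23.5, 21.0 and 17.5 in WT PBS (0.52 ± 0.15, adjusted p = 0.31). Its partner gene Scap (-0.06 ± 0.14) and Srebf2 (0.20 ± 0.19) had values near 0 with overlapping groups, and Srebf1 was at 13.8, 14.0 and 13.9 FPKM in KO PBS against 13.1, 11.2 and 13.0 in WT PBS (0.15 ± 0.08, adjusted p = 0.57). Mvk and Ebp were the 2 enzymes with a negative value, -0.05 ± 0.19 and -0.18 ± 0.10.

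For the export and uptake genes, knockout and wild-type libraries overlapped under PBS. Abca1 was at 12.1, 12.6 and 16.5 FPKM in KO PBS against 16.4, 13.8 and 20.3 in WT PBS (-0.27 ± 0.22, 95% interval -0.75 to 0.21), and Abcg1 at 15.3, 11.3 and 18.9 FPKM in KO PBS against 14.4, 13.1 and 18.3 in WT PBS (-0.03 ± 0.19, interval -0.45 to 0.39). Lpl was at 56.9, 43.1 and 40.8 FPKM in KO PBS against 47.9, 111 and 57.8 in WT PBS (-0.53 ± 0.36), and Apoe at 2350, 2592 and 2850 FPKM in KO PBS against 1517, 836 and 3743 in WT PBS (0.62 ± 0.46). None of these 4 genes passed. Lipa was at 29.2, 26.0 and 27.3 FPKM in KO PBS against 28.4, 90.7 and 76.8 in WT PBS, with a log2 fold change of -1.06 ± 0.34 (adjusted p = 0.39). Without WT PBS replicate 1, the low library of its group, Lipa was called lower in the knockout at -1.57 with an adjusted p of 0.0243.

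**Figure D3:**
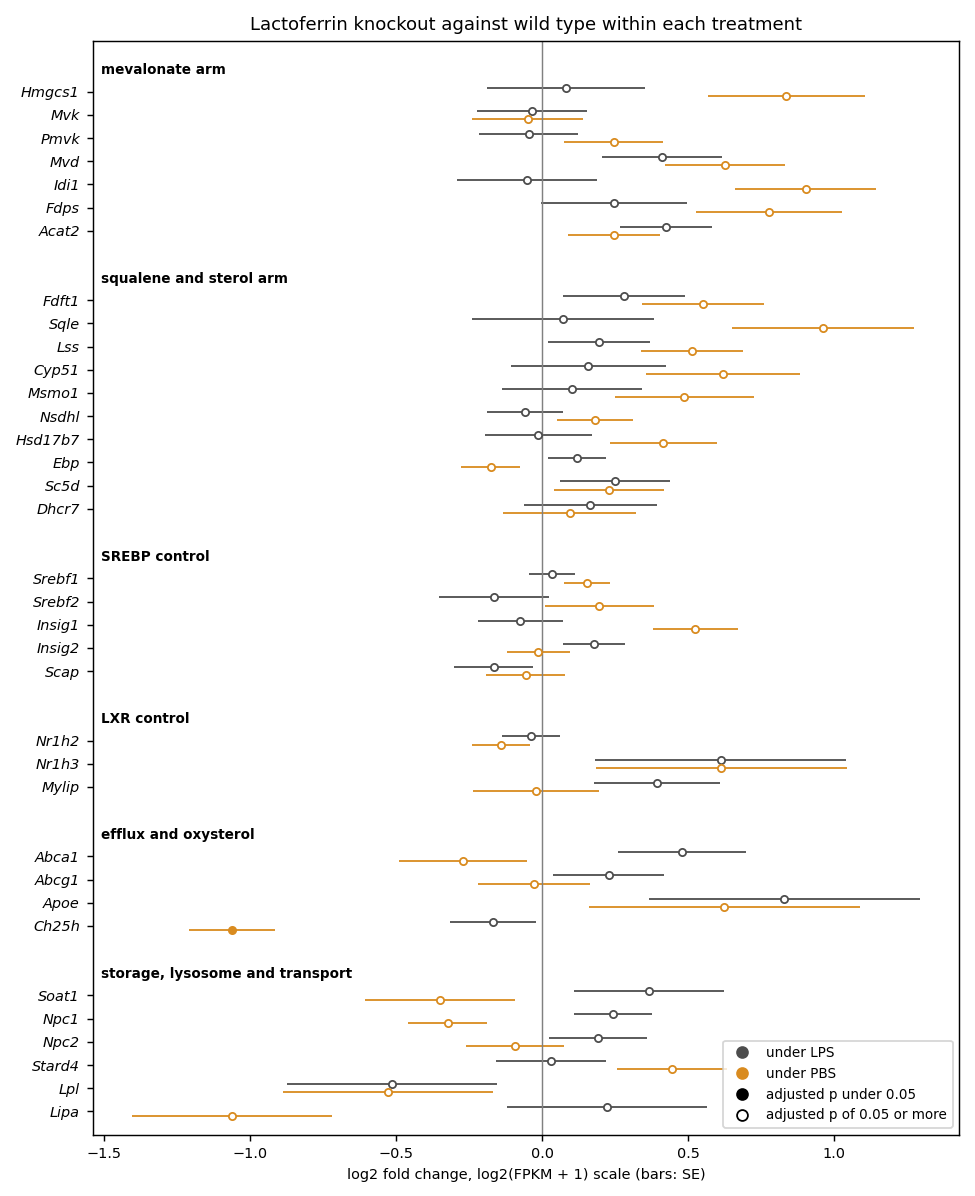
Log2 fold change, lactoferrin knockout over wild type, on the log2(FPKM + 1) scale with its standard error, for the 35 tested members under LPS (grey) and under PBS (orange), grouped by role, filled where the adjusted p was under 0.05. Under PBS, 15 of the 17 enzymes lie right of 0, with a median of 0.49, and the filled point is Ch25h at -1.06, whereas under LPS the enzymes lie around a median of 0.12.

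The height of the enzymes was also shared within groups, from library to library. KO LPS replicate 1 had the highest value of its group for 17 of the 17 tested enzymes, where it was highest for 33.2% of all tested genes, and KO LPS replicate 3 had the lowest for 12, where it was lowest for 46.7% of all tested genes. KO PBS replicate 1 was highest for 15 of the 17 (44.2% of all tested genes), WT PBS replicate 1 for 12 (33.7%) and WT LPS replicate 2 for 10 (46.9%). WT PBS replicate 3, the library that stood apart, was lowest for 10 (40.7%), and it had the highest large macrophage sum of its group. Without it the enzyme median of KO PBS over WT PBS was 0.31, with 16 of 17 positive and 6 at an unadjusted p under 0.05, and over all libraries left out in turn the median lay between 0.31 and 0.65. KO LPS replicate 1 is also one of the libraries rich in erythroid RNA. The T cell markers (5 of 5 averaging at least 1 FPKM) summed to 11.2 to 16.4 FPKM in KO PBS against 24.8 to 35.8 in WT PBS, and the small macrophage, monocyte and dendritic cell markers (7 of 8) summed to 2141 to 3491 in KO PBS against 4033 to 4819 in WT PBS, neither with overlap. Of the latter list, Cd74, H2-Ab1 and Irf4 were lower in KO PBS without overlap, while Ccr2, Ly6c2, Cd209a, H2-Aa and Flt3 overlapped. H2-Ab1 was apart only narrowly, at up to 585.3 FPKM in KO PBS against 585.7 FPKM or more in WT PBS. Cd74 alone had a mean of 1900 FPKM over the 12 libraries, against 3164 for the sum. The part of these cell types in the difference of the enzymes was not tested.

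**Figure D4:**
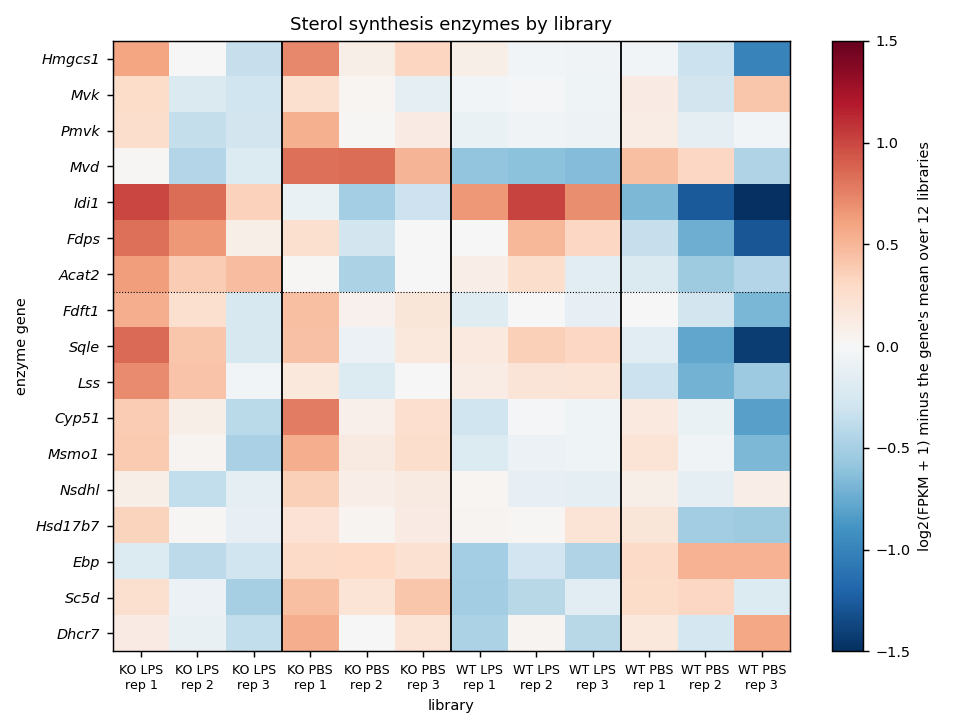
Log2(FPKM + 1) of the 17 tested synthesis enzymes in each library, less the mean of the gene over the 12 libraries (colour scale, red above and blue below the mean). The dotted line parts the mevalonate arm from the squalene and sterol arm. KO LPS replicate 1 is the reddest column of its group, and WT PBS replicate 3 is blue for most enzymes.

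Under LPS, none of the 35 members was called between knockout and wild type in either direction, where 0% of all tested genes were, and 2 had an unadjusted p under 0.05, both higher in the knockout, where 7.56% of all tested genes had one. The KO LPS libraries lay above the WT LPS libraries for 4 members, where 5.03% of all tested genes did so, and below them for 0, where 10.4% did so. The enzyme median was 0.12, beside -0.04 over all genes, and the enzyme sums were 243, 189 and 147 FPKM in KO LPS against 160, 183 and 170 in WT LPS, which overlap. The enzyme median was -0.02 without KO LPS replicate 1, 0.33 without KO LPS replicate 3, 0.07 without WT LPS replicate 1 and 0.18 without WT LPS replicate 2. Ch25h was at 18.1, 23.1 and 18.3 FPKM in KO LPS against 21.4, 27.0 and 19.1 in WT LPS, with a log2 fold change of -0.17 ± 0.15 (95% interval -0.49 to 0.15). Hmgcs1 (0.08 ± 0.27), Sqle (0.07 ± 0.31), Insig1 (-0.07 ± 0.15), Srebf1 (0.03 ± 0.08) and Srebf2 (-0.16 ± 0.19) had values within their errors of 0. Abca1 (0.48 ± 0.22, adjusted p = 0.66) and Apoe (0.83 ± 0.46, adjusted p = 0.70) were positive, Abcg1 was at 0.23 ± 0.19 and Lpl at -0.51 ± 0.36, and none of them passed. The 7 neutrophil markers summed to 713 to 2674 FPKM in KO LPS against 153 to 279 in WT LPS, and the 5 mast cell markers to 351 to 415 in KO LPS against 477 to 510 in WT LPS, neither with overlap. Single neutrophil markers were also apart except Csf3r. The mast cell markers Cpa3, Tpsb2 and Kit were apart, while Mcpt4 and Fcer1a overlapped. The part of these cell types in the values of the members was not tested.

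The difference between the genotypes in their response to LPS was tested as an interaction, that is the LPS log2 fold change in knockout cells minus the one in wild-type cells. None of the 35 members passed, where 0.0406% of all tested genes did, and 6 had an unadjusted p under 0.05, 4 positive and 2 negative, where 9.61% of all tested genes had one. The value with the smallest p was that of Ch25h, 0.89 ± 0.21 (adjusted p = 0.20), followed by Npc1 at 0.56 ± 0.19 (adjusted p = 0.42), Insig1 at -0.60 ± 0.21 (adjusted p = 0.44) and Idi1 at -0.95 ± 0.34 (adjusted p = 0.45). With an added constant of 0.1 the value of Ch25h was 1.92, and its adjusted p lay between 0.0639 and 0.503 over 20 alternatives. The other 2 were Abca1 at 0.75 ± 0.31 and Lipa at 1.28 ± 0.48. The enzyme median was -0.29, beside -0.02 over all genes, and it was -0.49 without KO LPS replicate 1, -0.16 without KO PBS replicate 1 and -0.18 without WT PBS replicate 3. This contrast shares its PBS libraries with the comparison of knockout and wild type under PBS, so the opposite signs of the enzymes in the 2 contrasts are not separate results. The intervals of the remaining genes of interest included 0 and differed in width. Srebf1 had the narrowest of them (-0.12, 95% interval -0.36 to 0.12). The others were wider, for Hmgcs1 (-0.75, -1.59 to 0.08), Sqle (-0.89, -1.85 to 0.07), Srebf2 (-0.36, -0.94 to 0.22), Abcg1 (0.26, -0.34 to 0.85), Apoe (0.21, -1.23 to 1.64) and Lpl (0.01, -1.10 to 1.13).

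Another 41 genes of the same pathways that are not among the 36 members were counted beside them, and 34 of them were tested. In the knockout 4 rose and 16 fell under LPS, and in wild type 3 rose and 19 fell, 58.8% and 64.7% of those tested against backgrounds of 53.2% and 62.2%. Their median log2 fold change was -0.41 in both genotypes. The highest rise was that of Fasn, fatty acid synthase, at 38.7, 47.2 and 28.5 FPKM in KO LPS and 23.8, 19.7 and 22.4 in KO PBS. Fasn had 36.0, 42.4 and 42.8 FPKM in WT LPS and 20.3, 14.4 and 13.1 in WT PBS. It rose by 0.75 ± 0.19 in the knockout (adjusted p = 0.00627) and by 1.31 ± 0.19 in wild type (adjusted p = 0.000133), with no overlap. Rxra, which encodes the retinoid X receptor that pairs with LXR, was at 4.50, 2.75 and 5.49 FPKM in KO LPS and 16.9, 21.3 and 15.9 in KO PBS. Rxra had 3.41, 3.11 and 2.88 FPKM in WT LPS and 12.7, 17.3 and 24.2 in WT PBS. It fell by 1.89 ± 0.23 (adjusted p = 6.32e-05) and by 2.16 ± 0.23 (adjusted p = 1.82e-05). Lrp1, a large endocytic receptor of lipoprotein remnants, fell by 1.91 ± 0.28 in the knockout (adjusted p = 0.000222) and by 1.88 ± 0.28 in wild type (adjusted p = 0.000167). Arl4c, a small GTPase known as an LXR target, fell by 1.79 ± 0.21 in the knockout (adjusted p = 4.62e-05) and by 2.05 ± 0.21 in wild type (adjusted p = 1.43e-05). Gramd1a, which carries cholesterol from the plasma membrane to the endoplasmic reticulum, rose by 0.47 ± 0.13 in the knockout (adjusted p = 0.0101), and its value in wild type was -0.11 ± 0.13 (adjusted p = 0.46). None of the 34 passed between knockout and wild type under either treatment, while 5 had an unadjusted p under 0.05 under PBS, where 9.11% of all tested genes had one, and 3 under LPS, where 7.56% had one.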

How the data were processed

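Per the labels' protocols, total RNA of peritoneal lavage cells was sequenced on a Solexa platform. The authors deposited 1 table of gene symbols and values per library. Its unit is not stated, and the deposited values were taken as FPKM because they are not whole numbers, sum to between 343874 and 388129 and Cufflinks is among the named tools. TopHat, Cufflinks, HTSeq, DESeq and GRCm38 are named, per the submitters' processing notes, without versions or roles. The sources used here do not give strand, annotation or filters. Of 21878 rows, 27 with symbols turned into dates were left out.

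Whole reads were not recovered, since at most 18.4% of pairs of low values lay within 2% of a common step. Groups follow the codes and characteristics of the samples, because titles of knockout libraries call the mice wild type. Genes averaging at least 1 FPKM over 12 libraries were tested (9841) with limma 3.58.1 in R 4.3.3, with a variance trend and robust shrinkage, on log2(FPKM + 1), a scale that understates changes of low genes. All 12 libraries entered a model of 4 group means, each test was two-sided, with Benjamini-Hochberg adjustment per contrast and a threshold of 0.05. The fit was tested on simulated data. Transcripts were compared with blastn 2.17.0 and overlaps read from the GENCODE annotation.

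The members and gene lists were chosen with earlier results of these data known. Values in every library are given for the 8 called members with the largest rise and the 8 with the largest fall in a contrast and for 10 members in every contrast, and a value for 2 other pathway genes in each direction. The NF-κB motif was added after the data were seen, and 1 gene that the rule names is not reported here. Alternatives were other added constants, filters and scaling, fits of the compared libraries alone, without trend, with a replicate block, and with libraries left out.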

Additional observations from a re-analysis of the deposited data

How the results depend on the processing

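The member counts for LPS against PBS stayed within 1.5 times of those reported under every alternative. With 1 library left out they lay between 5 and 7 higher and 7 and 10 lower in the knockout, and between 6 and 10 higher and 9 and 11 lower in wild type. The count of members lower in knockout than in wild type under PBS, 1, became 0 with no filter on low values, 0 with only the libraries compared and 0 without the 2 LPS libraries richest in haemoglobin RNA, an alternative chosen after seeing the data, and lay between 0 and 2 with 1 library left out. The cause was not tested. Counts for knockout against wild type under LPS and for the interaction were 0 in all fits. Of 41 called values of members and named pathway genes, 31 kept the call under every alternative, 10 lost it at least once, and 0 changed sign while called. Same-numbered libraries deviated together at most weakly over all tested genes. Of 18 same-numbered pairs, 5 had a correlation of deviations over 0.1, and the range was -0.25 to 0.19. Whether they shared a batch or a mouse cannot be told from these values. Of the 17 tested enzymes, replicate 1 was highest for 17 in KO LPS, 15 in KO PBS, 12 in WT PBS and 3 in WT LPS. With a replicate block, 5 members were higher and 9 lower under LPS in the knockout, and Insig1 passed in wild type (0.35, adjusted p = 0.0236). Depth is unknown, so the precision of low genes such as Ch25h under PBS cannot be set from the files.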
